A study of Homo sapiens with 8 samples.

Results

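The comparison described here is between 2 derivatives of T47D, an established human breast carcinoma line of luminal, estrogen receptor-positive type, before doxycycline was given. One derivative carried the EglN2 shRNA under doxycycline control and the other carried Scr, the scrambled control shRNA, and both hairpins had been delivered by lentivirus. Each line had 2 arrays at day 0 (0 h of doxycycline) and 2 at day 2 (48 h, with doxycycline at 1 ug/ml), 8 arrays in all. The protocol text gives 1 ug/ml doxycycline for the day 0 arrays too, and their 0 h of treatment is read here as no doxycycline. The day 0 difference was taken on the 4 day 0 arrays as EglN2 shRNA minus Scr, for every probe set with a gene symbol: 21214 of the 33297 in the table, covering 18417 genes when each gene is represented by its brightest single-gene probe set. Every line and array therefore shares the T47D background, a lentivirus and a hairpin. The labels do not say whether a line was 1 clone or a pool, nor whether the 2 arrays of a group stand for separate cultures. The spread behind each p-value is that between these arrays and may be technical. With 1 line per hairpin, the hairpin, the infection and the history of the line cannot be told apart in any difference given below.

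EglN2 (EGLN2, also called PHD1) is one of the prolyl hydroxylases that use oxygen to modify proteins. The best known substrates of the family are the alpha subunits of the hypoxia-inducible factor HIF, which are destroyed after hydroxylation, and FOXO3, whose control by EGLN2 affects cyclin D1 in breast cancer cells. In a tetracycline-inducible vector the hairpin is meant to be silent until doxycycline is added. Comparing the uninduced lines asks how far they differed before induction, which is the baseline for any difference seen with the drug.

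No single gene passed the test, and the difference in the EGLN2 message itself was smaller than its error. Butyrylcholinesterase (BCHE), an enzyme that hydrolyses choline esters, had the widest gap of any probe set, at 33.7% of the Scr level, with no overlap between the lines. Of the centrosome and cilium genes 30 of 31 had a positive difference, as did 36 of 37 mitosis genes, beside 50.3% of all genes. At day 2 the counts were 17 of 31 and 1 of 37. All 37 mitosis genes and 22 of the 31 centrosome and cilium genes were above the median level. At day 0 brighter genes tended to positive differences, and what part the level had was not tested. Cancer-testis genes and markers of mesenchymal, leukocyte and endothelial cells, which are dim on these arrays, had mostly negative differences (8 of 23, 6 of 24 and 4 of 18 positive). Against Scr day 0 replicate 2 alone their medians were -0.10, -0.0675 and -0.01. Of the leukocyte and endothelial markers 0 of 18 were above the median level. Whether the signal of such dim genes stood above background was not tested. Since the RNA came from bulk cultures, a smaller share of expressing cells and less RNA per cell cannot be told apart either. Levels are RMA values on the log2 scale, in which a difference of 1 is a factor of 2 in signal. RMA corrects the background, normalizes the arrays to each other and summarises the probes of a set.

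The microRNA gene MIR375 was 1 of the 10 single-gene probe sets with the most negative moderated t at day 0. Its 2 mature products are shown 5′ to 3′ with the seed, bases 2 to 8, in capitals, from RefSeq (GRCh38.p14). They lie on the minus strand at chr2:219001648-219001669 (3p) and chr2:219001682-219001704 (5p), and 0 other human mature miRNAs in the table shared either seed.
hsa-miR-375-3p: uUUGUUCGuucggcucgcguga
hsa-miR-375-5p: gCGACGAGccccucgcacaaacc

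The 250 bases before the start of BCHE, CKAP4 and LZTFL1 are also shown, because BCHE had the widest gap at day 0, CKAP4 was the other gene from that selection that passed the test at day 2, and LZTFL1 held the HIF motif searched for. They are given 5′ to 3′ on the gene's strand, from RefSeq (GRCh38.p14), at chr3:165837424-165837673 (BCHE, minus strand), chr12:106248021-106248270 (CKAP4, minus strand) and chr3:45842120-45842369 (LZTFL1, minus strand). Capitals mark a match to ACGTG, a form of the core of the HIF response element, on either strand. The other form of the core, GCGTG, was not searched for and is not marked.
BCHE: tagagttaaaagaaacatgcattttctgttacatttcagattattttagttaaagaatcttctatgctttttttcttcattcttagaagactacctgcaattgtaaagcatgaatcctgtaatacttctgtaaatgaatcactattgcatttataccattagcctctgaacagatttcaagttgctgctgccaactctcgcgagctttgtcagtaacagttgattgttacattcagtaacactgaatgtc
CKAP4: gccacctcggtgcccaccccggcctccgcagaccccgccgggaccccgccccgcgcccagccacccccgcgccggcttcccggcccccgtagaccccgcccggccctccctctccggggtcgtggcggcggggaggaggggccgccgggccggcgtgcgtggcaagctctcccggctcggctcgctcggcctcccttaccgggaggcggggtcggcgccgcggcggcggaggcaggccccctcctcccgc
LZTFL1: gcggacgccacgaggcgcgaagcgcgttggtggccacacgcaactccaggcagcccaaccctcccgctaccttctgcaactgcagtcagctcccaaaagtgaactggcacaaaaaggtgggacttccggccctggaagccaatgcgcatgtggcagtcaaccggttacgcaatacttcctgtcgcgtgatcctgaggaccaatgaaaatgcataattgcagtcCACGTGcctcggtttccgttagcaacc

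These windows differ in composition: G and C make up 33.2% of the BCHE window, which holds 2 CpG dinucleotides, against 83.6% and 37 CpG dinucleotides for CKAP4. Of the 20 genes with the largest moderated t described below, 14 had a window in the table. ACGTG was found on either strand in 1 of them (LZTFL1, where the palindrome CACGTG is read on both strands and counted 2 times), against 6501 of 35116 human windows of that length (18.5%). GTAAACA, the forkhead core that FOXO factors bind, was found in 0 of the 14, against 1046 of 35116 windows (2.98%). A match or its lack describes only these letters in these windows.

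The arrays were comparable in overall level, with medians over the named probe sets between 7.81 and 7.86. One array stood apart in its correlation with the others. Scr day 0 replicate 1 had a mean correlation of 0.9913 with the other arrays, against 0.993 to 0.9948 for the rest. Its spread of values was the narrowest, with an interquartile range of 6.40 to 9.26. Scr day 0 replicate 2 was close to it in spread, at 6.38 to 9.28. The EglN2 shRNA day 0 arrays were wider, at 6.32 to 9.34 and 6.30 to 9.35. Scr day 0 replicate 2 correlated better with the 2 EglN2 shRNA day 0 arrays (0.9942 and 0.9954) than with Scr day 0 replicate 1 (0.9935). Differences against each Scr array alone were therefore computed as well. For the 20 genes of largest moderated t described below the lines did not overlap, so these differences must keep the sign of the main one. All 9 luminal markers (such as ESR1, PGR, GATA3 and KRT8) were above the array median, with differences from -0.12 to 0.075, while 0 of 5 leukocyte and 0 of 4 endothelial markers were.

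The hairpin's target came first. EGLN2, read by a probe set that also matches the RAB4B-EGLN2 readthrough, was at 8.97 and 9.0 on the Scr arrays and at 8.85 and 9.04 on the EglN2 shRNA arrays. The EglN2 shRNA values lie on both sides of the Scr values. The difference was -0.04 (SE 0.11, 95% interval -0.28 to 0.20; limma, adjusted p = 0.889), which as a share of the Scr level is 97.3% with an interval of 82.4% to 114.8%. The same probe set differed by -0.58 at day 2 (8.81 and 8.90 in Scr, 8.26 and 8.29 in EglN2 shRNA; limma, adjusted p = 0.151), without overlap. The interval thus does not exclude a day 0 level of EGLN2 message between 82.4% and 114.8% of Scr.

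The genes around EGLN2 in the oxygen-sensing pathway gave similar readings. EGLN1, the main HIF prolyl hydroxylase, differed by -0.095 (SE 0.11), and EGLN3, the hydroxylase that HIF itself induces, by -0.095 (SE 0.13). The HIF alpha subunits HIF1A and EPAS1 differed by 0.135 (SE 0.13) and 0.065 (SE 0.15), and both differences were negative against Scr replicate 2 alone (-0.03 and -0.10). CCND1, which encodes cyclin D1, differed by -0.025 (SE 0.16), with 10.79 on both Scr arrays and 10.61 and 10.92 on the EglN2 shRNA arrays. FOXO3 differed by 0.04 (SE 0.14) on its own probe set, ESR1 by -0.12 (SE 0.11) on the brighter of its probe sets, and PGR, the progesterone receptor, by 0.01 (SE 0.15). In none of these did the test pass (limma, adjusted p from 0.676 to 0.983), and the sign of several turned when 1 array was left out, with values in the closing section.

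Over all named probe sets, 0 of 21214 (0%) passed an adjusted p of 0.05 at day 0, and the smallest adjusted p was 0.447 (limma). At an unadjusted p under 0.05 there were 2213 (10.4%), of which 1095 (5.16%) were higher in the EglN2 shRNA line and 1118 (5.27%) lower. The 2 groups did not overlap for 9553 probe sets (45.0%). At day 2, where 16 probe sets (0.0754%) passed, 2 higher (0.00943%) and 14 lower (0.0660%), 1100 (5.19%) had an unadjusted p under 0.05 and 30.4% did not overlap, so the uninduced arrays had more small separations and no call. Leaving out the deviating Scr day 0 replicate 1 lowered the unadjusted count to 1195, while leaving out Scr day 0 replicate 2 raised it to 3216, each with 0 calls.

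Most day 0 differences were small: their SD over the probe sets was 0.19, the median SE was 0.123, and 1 probe set lay above 1 and 1, that of BCHE, below -1. A difference of at least 0.5 in size was found for 262 probe sets (1.24%) at day 0 and for 212 (0.999%) at day 2. The differences also moved with the level of the gene. Split into 5 groups of equal size by mean level, from dim to bright, the median differences were -0.05, -0.105, -0.045, 0.07 and 0.09. In the brightest group 240 probe sets had an unadjusted p under 0.05 with a positive difference and 20 with a negative one, while in the second-dimmest group the split was 114 to 407. Against Scr replicate 1 alone the medians were -0.06, -0.12, -0.08, 0.055 and 0.11, and against Scr replicate 2 alone they were -0.035, -0.075, -0.015, 0.06 and 0.055. The sign of each group was the same against either array. Both Scr arrays had a narrower spread than both EglN2 shRNA arrays, so the shared signs are not an independent check on this trend.

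**Figure D1:**
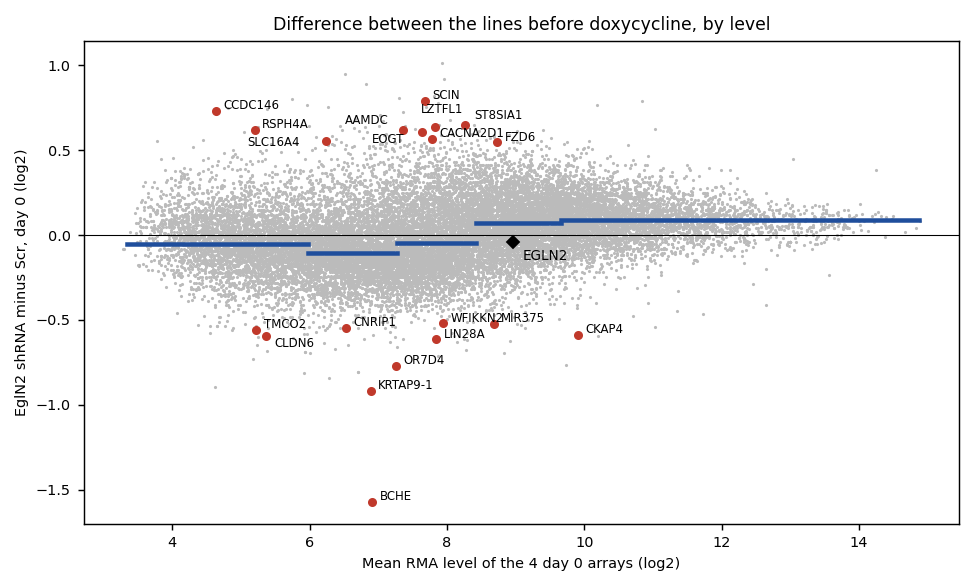
Each grey point is 1 of the 21214 named probe sets, with its mean level on the 4 day 0 arrays (log2, x axis) and its day 0 difference, EglN2 shRNA minus Scr (log2, y axis). Blue lines are the medians of the 5 level groups, from -0.105 in the second to 0.09 in the brightest; red points are the 20 genes of largest moderated t, the black diamond is EGLN2 at -0.04, and BCHE stands alone at -1.57.

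Since no gene passed, the genes named next are the 10 single-gene probe sets with the largest moderated t in each direction. That rule chose them for their gap, so their values are a description: their unadjusted p ran from 7.07e-05 to 0.000718 and their adjusted p from 0.447 to 0.455 (limma). The groups did not overlap in any of the 20. Overlap was not a condition of the choice, but choosing by large t favours its absence.

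BCHE was at 7.41 and 7.99 on the Scr arrays and at 6.36 and 5.90 on the EglN2 shRNA arrays. The difference was -1.57 (SE 0.25, 95% interval -2.14 to -1.0), a level of 33.7% of Scr with an interval of 22.7% to 50%. Both arrays of the EglN2 shRNA line were more than 1 log2 unit below the lower Scr array, and the gap was -1.28 against Scr replicate 1 alone and -1.86 against Scr replicate 2 alone.

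OR7D4, an odorant receptor gene, was at 7.57 and 7.71 in Scr and at 6.94 and 6.80 in the EglN2 shRNA line, a difference of -0.77 (SE 0.12). KRTAP9-1, a keratin-associated protein of the hair shaft, was at 7.48 and 7.23 against 6.59 and 6.28, a difference of -0.92 (SE 0.16); a further probe set that it shares with other genes differed by -0.17 (SE 0.11). On both genes the 2 EglN2 shRNA arrays were below the 2 Scr arrays.

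CKAP4, a membrane protein that shapes endoplasmic reticulum sheets and ties them to microtubules, was among the brighter genes of the selection. It was at 10.27 and 10.14 in Scr and at 9.57 and 9.66 in the EglN2 shRNA line, a difference of -0.59 (SE 0.10, 95% interval -0.82 to -0.36), or 66.4% of the Scr level. LIN28A, which binds RNA and blocks maturation of let-7 microRNAs, was at 8.10 and 8.20 against 7.48 and 7.59, a difference of -0.615 (SE 0.11). A dimmer second probe set of LIN28A differed by 0.135 (SE 0.21), so the probe sets of that gene disagree in sign.

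The probe set of MIR375 reads the transcript of the microRNA gene, not the mature strands shown above. It was at 8.90 and 8.99 in Scr and at 8.40 and 8.44 in the EglN2 shRNA line, a difference of -0.525 (SE 0.10), or 69.5% of Scr. CLDN6, a tight junction claudin of embryonic epithelia, was at 5.60 and 5.71 against 5.03 and 5.09, a difference of -0.595 (SE 0.12). In both genes the 2 arrays of a line lay close together. The remaining genes on the negative side were WFIKKN2, a secreted antagonist of growth factors of the TGF-beta superfamily (-0.52), CNRIP1, a partner of the cannabinoid receptor (-0.545), and TMCO2 (-0.56).

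On the positive side ST8SIA1, the sialyltransferase that makes the ganglioside GD3, was at 7.92 and 7.96 in Scr and at 8.57 and 8.61 in the EglN2 shRNA line. The difference was 0.65 (SE 0.10), or 157% of Scr, and its dimmer second probe set differed by 0.36 (SE 0.19). SCIN, an actin-severing protein regulated by calcium, had the widest positive gap of the selection: 7.45 and 7.12 against 8.14 and 8.01, a difference of 0.79 (SE 0.14).

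A few of the positive genes belong to cilia and their relatives. CCDC146, a protein of the centriole and sperm flagellum, was at 4.23 and 4.32 in Scr and at 4.92 and 5.09 in the EglN2 shRNA line, a difference of 0.73 (SE 0.13). LZTFL1, which controls traffic of the Bardet-Biedl protein complex into cilia, was at 7.47 and 7.55 against 8.20 and 8.09, a difference of 0.635 (SE 0.12). RSPH4A, a radial spoke protein of motile cilia, was at 4.98 and 4.81 against 5.46 and 5.57, a difference of 0.62 (SE 0.12). CCDC146 and RSPH4A are dim on these arrays, with all 4 values below 6.

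The others were CACNA2D1, an auxiliary subunit of voltage-gated calcium channels (0.565), AAMDC (0.62), EOGT, which adds O-linked N-acetylglucosamine to secreted proteins (0.605), SLC16A4, a member of the monocarboxylate transporter family (0.555), and FZD6, a Wnt receptor (0.545). EOGT was at 7.34 on both Scr arrays and at 7.95 and 7.94 on the EglN2 shRNA arrays. SLC16A4 was at 5.97 and 5.96 against 6.59 and 6.45. For these the pairs of arrays within a line were close, and both EglN2 shRNA arrays were above both Scr arrays.

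**Figure D2:**
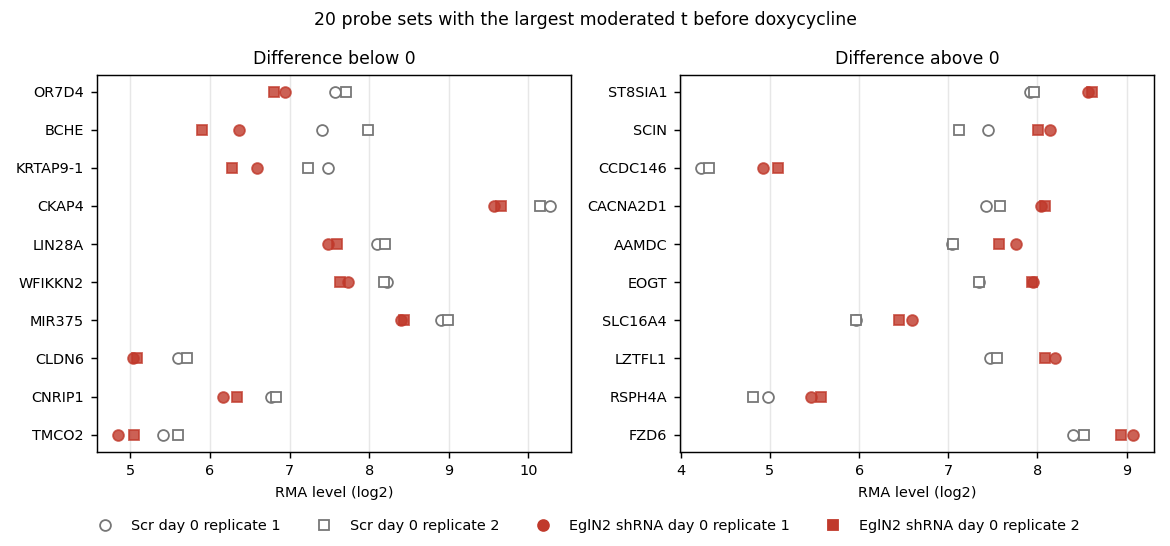
RMA levels (log2, x axes) of the 20 genes with the largest moderated t at day 0, 10 with a difference below 0 (left) and 10 above 0 (right), with open grey symbols for the 2 Scr arrays and red symbols for the 2 EglN2 shRNA arrays. In every gene the 2 red symbols lie on 1 side of the 2 grey ones, which the choice by large t favours. For BCHE they lie at 6.36 and 5.90 against 7.41 and 7.99.

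The day 2 arrays hold RNA of the same lines, which lets the same differences be read again after 48 h of doxycycline. The day 2 levels did not enter the day 0 differences. The spread of the day 2 arrays did enter the moderated t that chose the genes, so these arrays were not left out of the choice. Across all named probe sets the 2 differences had the same sign for 10649 (50.2%), with a correlation of 0.03 across probe sets, given as a description. Of the 10 genes selected on the positive side, 9 had a positive difference at day 2, and of the 10 on the negative side 6 had a negative one.

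BCHE differed by -2.695 at day 2 (8.56 and 7.86 in Scr, 5.44 and 5.59 in EglN2 shRNA; SE 0.25; limma, adjusted p = 0.00973), which passed. That call was lost without Scr day 2 replicate 1 (difference -2.345, adjusted p = 0.0796) or without EglN2 shRNA day 2 replicate 1 (-2.62, adjusted p = 0.136), and with all probe sets of the table tested (adjusted p = 0.249). The step from the day 0 to the day 2 difference was -1.125 (SE 0.36; limma, adjusted p = 0.676), which did not pass. Over all probe sets 0 steps (0%) passed, and 1511 (7.12%) had an unadjusted p under 0.05.

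CKAP4 differed by -0.78 at day 2 (9.85 and 9.93 in Scr, 9.14 and 9.08 in EglN2 shRNA; limma, adjusted p = 0.0385). The call was lost whichever of the 8 arrays was left out (adjusted p from 0.0789 to 0.578), with array medians subtracted (0.0536) and with all probe sets tested (0.265). The step from day 0 was -0.19 (SE 0.15; limma, adjusted p = 0.763), which did not pass. CKAP4 was chosen for its large day 0 t, which favours a wide day 0 gap. How much of its day 2 gap was present without doxycycline therefore cannot be told from these values.

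LIN28A differed by -0.675 at day 2 (8.31 and 8.47 in Scr, 7.63 and 7.8 in EglN2 shRNA; limma, adjusted p = 0.107) and SLC16A4 by 0.605 (6.24 and 6.32 against 6.85 and 6.92; limma, adjusted p = 0.107). Neither passed. On these probe sets the 2 lines were apart by nearly the same amount on both days, with steps of -0.06 and 0.05. The dimmer probe set of LIN28A differed by 0.135 at day 0 and by -0.43 at day 2, a step of -0.565 (SE 0.30). On it the lines overlapped on both days.

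Of the selected genes, 7 of 10 on the positive side and 6 of 10 on the negative side did not overlap at day 2 in their day 0 direction (15.6% and 14.8% of all probe sets). The choice favoured genes with close day 2 arrays, so the shares of all probe sets are not a like comparison. Besides those just given, CCDC146 differed by 0.46 at day 2, RSPH4A by 0.335, LZTFL1 by 0.325, SCIN by 0.29 and WFIKKN2 by -0.245, none of which passed (limma, adjusted p from 0.510 to 0.991). For the other genes the lines overlapped at day 2 or differed by 0.135 or less in that direction, apart from the opposite values below. MIR375 differed by 0.02 at day 2 (8.34 and 8.19 in Scr, 8.32 and 8.25 in EglN2 shRNA), where the 2 lines interleave. CLDN6 differed by 0.49 (4.81 and 4.98 against 5.27 and 5.50), opposite to its day 0 value; the test of the step, 1.085, gave an adjusted p of 0.472 (limma). The day 2 differences of ST8SIA1, EOGT and AAMDC were 0.045, 0.005 and -0.005. OR7D4 and KRTAP9-1 read 0.13 and 0.24.

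In the other direction, the 16 probe sets that passed at day 2 can be looked up at day 0. Of these, 12 had a day 0 difference of the same sign, and 9 were without overlap in that direction, beside 22.2% (higher) and 22.9% (lower) of all probe sets. Here too the fit that chose them used the spread of the day 0 arrays. IGFBP5, a secreted binding protein of insulin-like growth factors, was at 11.47 and 11.68 in Scr and at 10.99 and 11.26 in EglN2 shRNA before doxycycline, a difference of -0.45 (SE 0.16). At day 2 it differed by -1.46 (11.64 and 11.72 in Scr, 10 and 10.44 in EglN2 shRNA; limma, adjusted p = 0.0234), a call that was lost without any 1 of the 4 Scr arrays or without EglN2 shRNA day 2 replicate 1 (adjusted p from 0.0666 to 0.308) and with all probe sets tested (0.249). ALYREF, an adaptor for messenger RNA export, had the smallest p at day 2 and differed by -0.075 and -0.09 on its probe sets at day 0 against -1.305 and -1.285 at day 2. PPP1R11, an inhibitor of protein phosphatase 1 and the gene behind both positive calls at day 2 (its 2 probe sets hold the same values), differed by -0.055 at day 0 and by 0.835 at day 2. Among these called genes the day 0 differences thus ranged from -1.57 for BCHE and -0.59 for CKAP4 to values within their error, as for ALYREF.

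**Figure D3:**
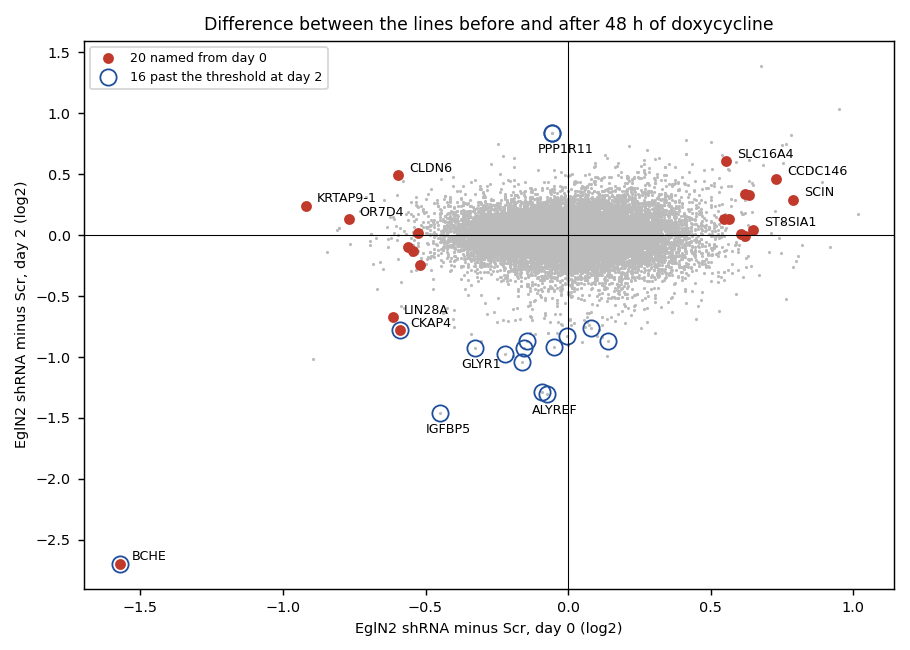
Each grey point is 1 named probe set, with its EglN2 shRNA minus Scr difference at day 0 (log2, x axis) and at day 2, after 48 h of doxycycline (log2, y axis). Red points are the 20 genes chosen at day 0 and blue rings the 16 probe sets that passed at day 2; BCHE and CKAP4 carry both, while ALYREF lies near 0 on the x axis and CLDN6 lies below 0 on the x axis and above 0 on the y axis.

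**Figure D4:**
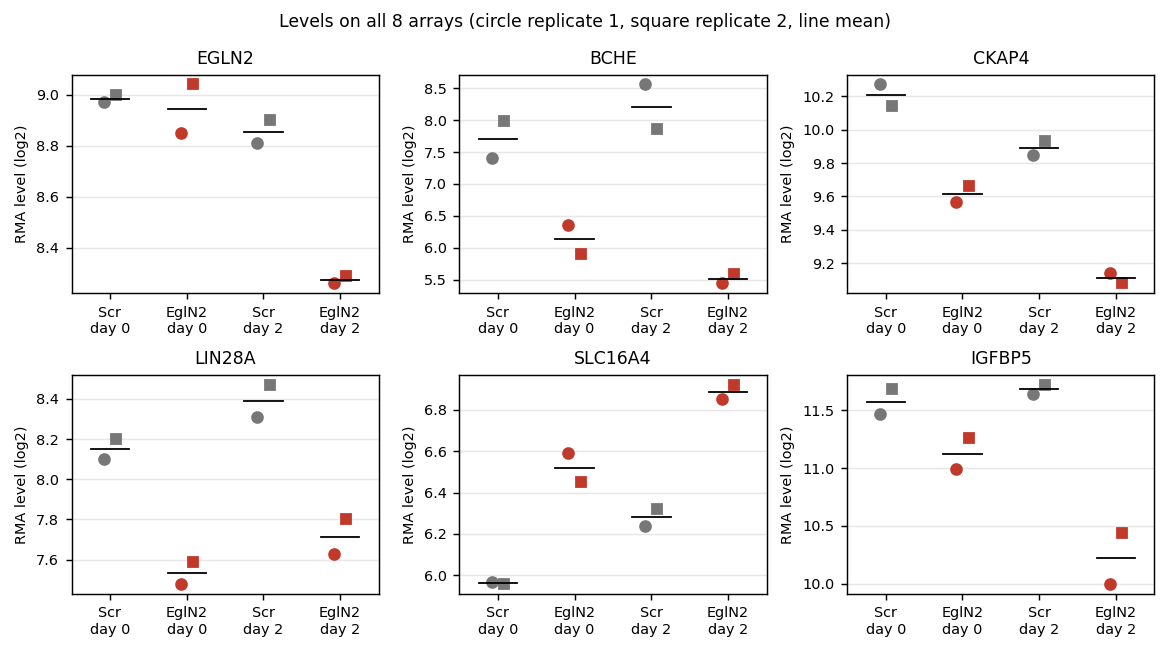
RMA levels (log2, y axes, which do not start at 0) of 6 genes on all 8 arrays, with circles for replicate 1, squares for replicate 2 and a line at each group mean. The EGLN2 values of the 2 lines overlap at day 0 and separate at day 2, whereas BCHE, CKAP4, LIN28A (its brighter probe set), SLC16A4 and IGFBP5 are apart on both days.

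Groups of genes were described with 36 lists (1015 genes), each by how many measured members had a positive difference and by the median difference, beside 9267 of 18417 genes positive (50.3%) and a median of 0.005 for all genes. No member of any list passed the adjusted threshold, as no probe set did. Of the 36 lists, 25 had a positive median and 11 a negative one. Because the difference moved with level and with the Scr array used, each median was also taken against each Scr array alone, after quantile normalization and after subtracting array medians. In those 5 readings the median was above 0 throughout for 10 lists, below 0 throughout for 6, and was 0 or turned sign at least once for 20. Quantile normalization moved the median of all genes to -0.0069.

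The centrosome and cilium list had the largest median of the 36: 30 of its 31 measured genes had a positive difference and the median was 0.235. For 20 genes the lines did not overlap in that direction (22.7% of all genes), and 10 had an unadjusted p under 0.05 on the higher side (5.38% of all genes). PLK4, the kinase that starts centriole duplication, was at 7.85 and 8.30 in Scr and at 8.55 and 8.68 in the EglN2 shRNA line (difference 0.54, SE 0.17). IFT88 and IFT74, which carry cargo along the cilium, differed by 0.405 (SE 0.13) and 0.50 (SE 0.17), and ARL6, a small GTPase that recruits the Bardet-Biedl complex, by 0.515 (SE 0.19). In each of these 4 genes Scr replicate 1 was the lowest array and Scr replicate 2 the next. The list's median was 0.305 against Scr replicate 1 alone, 0.17 against Scr replicate 2 alone and 0.192 after quantile normalization. At day 2 it was 0.035, with 17 of 31 positive.

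The mitosis list followed, with 36 of 37 measured genes positive, a median of 0.205, 23 genes without overlap on the higher side (22.7% of all genes) and 5 with an unadjusted p under 0.05 there (5.38% of all genes). CENPK, a kinetochore protein, was at 8.53 and 8.97 against 9.19 and 9.41 (difference 0.55, SE 0.16). CENPE, the kinesin that aligns chromosomes, differed by 0.40 (SE 0.13), NUSAP1, a spindle protein, by 0.31 (SE 0.10), and ASPM, a protein of the spindle pole, by 0.36 (SE 0.13). The median was 0.215 and 0.105 against the 2 Scr arrays alone, 0.115 after quantile normalization, and -0.165 at day 2 with 1 of 37 positive. All 37 genes were above the median level, and what part the level had in this list was not tested.

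The replication and histone lists, which also belong to the dividing cell, rested on Scr replicate 1. DNA replication genes had 32 of 38 positive and a median of 0.1025, which was 0.1975 against Scr replicate 1 and -0.0325 against Scr replicate 2. Replication-dependent histones had 30 of 39 positive and a median of 0.095, which was 0.245 against Scr replicate 1 and -0.035 against Scr replicate 2. RFC3, a clamp loader subunit, was at 10.23 and 10.76 in Scr and at 10.86 and 11.01 in the EglN2 shRNA line. H4C4, a histone H4 gene, was at 10.18 and 10.72 against 10.92 and 11.56. For the 2 genes the values of Scr replicate 1 were the lowest of the 4 arrays.

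HIF targets, the genes that would respond to less prolyl hydroxylation, had 25 of 32 measured members positive and a median of 0.095. On the higher side 8 had an unadjusted p under 0.05 (5.38% of all genes) and 13 did not overlap (22.7%), against 0 and 1 on the lower side. P4HA2, a collagen prolyl hydroxylase, was at 8.33 and 8.45 in Scr and at 8.85 and 8.76 in the EglN2 shRNA line (difference 0.415, SE 0.10). PDK1, which restrains pyruvate dehydrogenase, was at 8.40 and 8.75 against 8.95 and 9.16 (0.48, SE 0.14). BNIP3L, a mitophagy receptor, was at 9.31 and 9.46 against 9.69 and 9.85 (0.385, SE 0.11), and KDM3A, a histone demethylase, differed by 0.37 (SE 0.12). In these genes both EglN2 shRNA arrays were above both Scr arrays. The list's median was above 0 in every reading (0.115 and 0.11 against the 2 Scr arrays, 0.0652 after quantile normalization) and was 0.1125 at day 2 with 22 of 32 positive. Of the 32 genes 25 were above the median level. The second-brightest of the 5 level groups had a median of 0.07 over all its probe sets. What part the level had in this list was not tested.

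The oxygen-sensing list itself, with EGLN2, the other hydroxylases, the HIF subunits and the VHL ligase, had 9 of 14 positive and a median of 0.0675, which was 0.005 against Scr replicate 2 and -0.0028 after quantile normalization. HIF3A, an alpha subunit that can restrain HIF activity, was at 7.15 and 7.30 against 7.03 and 6.89 (difference -0.265, SE 0.11). VHL, which marks hydroxylated HIF for destruction, was at 9.34 and 9.47 against 9.62 and 9.63 (0.22, SE 0.10), and its partners RBX1 and CUL2 differed by 0.265 (SE 0.12) and 0.245 (SE 0.13). The list of FOXO3, cyclin D1 and cell cycle entry genes had 9 of 18 positive and a median of 0.005, -0.02 against Scr replicate 1 alone, with 0 genes under an unadjusted p of 0.05.

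Genes of the amino acid stress response driven by ATF4 had 29 of 34 positive, a median of 0.1425 and 21 without overlap on the higher side (22.7% of all genes). PSPH and PSAT1, enzymes of serine synthesis, were at 9.56 and 9.45 against 10.09 and 9.86 (difference 0.47, SE 0.11) and at 9.70 and 10.02 against 10.26 and 10.47 (0.505, SE 0.15). DDIT4, an inhibitor of mTORC1 that HIF also induces, differed by 0.295 (SE 0.11). The median was 0.195 and 0.12 against the 2 Scr arrays alone, 0.0829 after quantile normalization, and again 0.1425 at day 2 with 31 of 34 positive. Of the 34 genes 30 were above the median level, and what part the level had was not tested.

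Proteasome subunits had 28 of 29 positive and a median of 0.14, which was 0.05 against Scr replicate 2 alone and 0.0612 after quantile normalization, with 0 members at an unadjusted p under 0.05. Subunits of the respiratory chain had 25 of 30 positive and a median of 0.1125, 0.05 against Scr replicate 2 and 0.0511 after quantile normalization. Cholesterol and fatty acid synthesis had 21 of 24 positive and a median of 0.1175, which was 0.2025 and 0.0775 against the 2 Scr arrays alone and 0.0416 after quantile normalization. Among them CYP51A1, a sterol demethylase, was at 10.53 and 10.72 against 10.97 and 10.97 (difference 0.345, SE 0.12), and ELOVL6, a fatty acid elongase, at 8.54 and 8.90 against 9.20 and 9.26 (0.51, SE 0.17). These lists are of bright genes, and the brightest of the 5 level groups had a median of 0.09. What part the level had in them was not tested.

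The other lists with positive medians in all readings were messenger RNA export and splicing (24 of 28 positive, median 0.0975), p53 targets (14 of 20, 0.095) and transporters (16 of 27, 0.045). Against Scr replicate 1 and Scr replicate 2 alone these medians were 0.145 and 0.0525, 0.0325 and 0.05, and 0.05 and 0.025. THOC1, of the complex that couples transcription to export, was at 9.08 and 9.29 against 9.67 and 9.50 (difference 0.40, SE 0.14), while NXT1, an export receptor subunit, was at 9.53 and 9.38 against 9.12 and 9.17 (-0.31, SE 0.12). BBC3, the apoptosis inducer PUMA, differed by -0.30 (SE 0.13), against the direction of its list. SLC27A2, a fatty acid transporter, was at 6.81 and 6.52 against 7.47 and 7.27 (0.705, SE 0.15), the largest positive gap in the transporter list.

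A hairpin can be sensed as double-stranded RNA, so the interferon and double-stranded RNA response was listed. It had 21 of 33 positive and a median of 0.05, which was -0.02 against Scr replicate 1 alone and 0.10 against Scr replicate 2 alone. On the higher side 6 had an unadjusted p under 0.05 (5.38% of all genes) and on the lower side 1 (5.40%). IFIH1, the sensor MDA5, was at 6.80 and 7.10 in Scr and at 7.49 and 7.43 in the EglN2 shRNA line (difference 0.51, SE 0.13), and RIGI, the sensor RIG-I, at 7.29 and 7.41 against 7.92 and 7.67 (0.445, SE 0.13). PSMB8, an immunoproteasome subunit, was at 8.86 and 9.12 against 9.64 and 9.33 (0.495, SE 0.14). IFI27, an interferon-induced gene, went the other way, at 8.48 and 8.06 against 7.77 and 7.82 (-0.475, SE 0.21). At day 2 the list had 12 of 33 positive and a median of -0.04.

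The machinery that processes hairpins was listed as well. It had 10 of 17 positive and a median of 0.025, -0.035 against Scr replicate 1 alone and -0.0525 after quantile normalization. AGO3, an Argonaute protein, was at 8.06 and 8.28 against 8.52 and 8.54 (difference 0.36, SE 0.13), and DICER1, which cuts hairpins, at 10.15 and 9.97 against 10.02 and 9.91 (-0.095, SE 0.11).

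The lists with negative medians in all readings were mostly of dim genes. The cholinesterase and carboxylesterase list, set around BCHE, had 5 of 14 positive and a median of -0.11, which was -0.14 and -0.065 against the 2 Scr arrays alone. PON2, a paraoxonase, was at 10.16 and 10.26 against 10.69 and 10.58 (difference 0.425, SE 0.10), opposite to BCHE, and PRIMA1, which anchors acetylcholinesterase in the membrane, was at 7.30 and 7.06 against 6.73 and 7.02 (-0.305, SE 0.14). The smallest p values of the list thus lay on both sides.

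Mesenchymal and fibroblast markers had 6 of 24 positive and a median of -0.1275, -0.1675 against Scr replicate 1 alone and -0.0675 against Scr replicate 2 alone. TWIST1, a transcription factor of mesenchyme, was at 9.13 and 9.21 against 8.87 and 8.88 (difference -0.295, SE 0.10), and THY1 was at 7.10 and 6.92 against 6.68 and 6.68 (-0.33, SE 0.14). Of the 8 fibroblast markers used to check the cell type, 1 was above the array median; their summed log2 level was 56.59 and 55.72 in Scr and 55.45 and 55.34 in EglN2 shRNA. Leukocyte and endothelial markers had 4 of 18 positive and a median of -0.135, -0.1775 against Scr replicate 1 alone and -0.01 against Scr replicate 2 alone. The summed level of the 5 leukocyte markers was 27.04 and 26.14 against 26.84 and 26.55, and that of the 4 endothelial markers 24.28 and 23.16 against 23.08 and 23.24. These sums overlapped between the lines for leukocyte and endothelial markers and were highest on Scr replicate 1 in all these lists.

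Cancer-testis antigens had 8 of 23 positive and a median of -0.14 (-0.08 and -0.10 against the 2 Scr arrays alone), with PAGE2 at 4.73 and 4.56 against 4.05 and 4.18 (difference -0.53, SE 0.14). Imprinted genes had 5 of 20 positive and a median of -0.08 (-0.09 and -0.065 against the 2 Scr arrays alone), although the members with the smallest p, SGCE (0.485, SE 0.16) and NDN (0.385, SE 0.13), were on the positive side, ahead of CDKN1C, a cyclin-dependent kinase inhibitor (-0.375, SE 0.15).

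Immediate-early genes, which respond within minutes to growth factors and handling, had 7 of 23 positive, a median of -0.095 and 4 members with an unadjusted p under 0.05 on the lower side (5.40% of all genes). ZFP36, which destabilises messenger RNAs, was at 8.71 and 8.86 against 8.41 and 8.27 (difference -0.445, SE 0.13). EGR1, a transcription factor of early response, was at 7.68 and 7.63 against 7.30 and 7.33 (-0.34, SE 0.11), and FOSL1 and FOSB, of the AP-1 factors, differed by -0.29 (SE 0.11) and -0.34 (SE 0.14). Both EglN2 shRNA arrays were below both Scr arrays in each. The list's median was -0.175 against Scr replicate 1 alone, -0.06 against Scr replicate 2 alone and 0 at day 2.

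Taking only probe sets above the median level left few members in the lists with negative medians. The median was 0.065 over the 5 cholinesterase genes left, -0.2275 over 4 mesenchymal genes, -0.06 over 5 cancer-testis genes, 0.01 over 8 imprinted genes and -0.0625 over 12 immediate-early genes, and 0 of the leukocyte and endothelial markers were left.

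Growth factor signalling gave 15 of 31 positive and a median of -0.08, which was 0.025 against Scr replicate 2 alone. Its low members were IRS1, an adaptor of insulin receptor signalling, at 7.36 and 7.52 against 6.86 and 7.08 (difference -0.47, SE 0.12), SPRY4, a feedback inhibitor of the ERK pathway, at 6.30 and 6.75 against 5.73 and 6.05 (-0.635, SE 0.18), and EREG, an EGF receptor ligand (-0.42, SE 0.16), beside IGFBP5. For cell adhesion 16 of 31 were positive and the median was 0.02, -0.03 against Scr replicate 1 and -0.0056 after quantile normalization. The claudins were apart: CLDN1 was at 12.80 and 12.84 against 13.23 and 13.31 (difference 0.45, SE 0.10) and CLDN8 at 7.35 and 7.04 against 7.84 and 7.52 (0.485, SE 0.15), while CLDN6 was negative. ITGA4, an integrin alpha chain of white cells, differed by -0.36 (SE 0.10).

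Extracellular matrix genes had 14 of 38 positive and a median of -0.0625, 0.0325 against Scr replicate 2 alone. NID1, a basement membrane protein, was at 6.15 and 6.04 against 5.58 and 5.68 (difference -0.465, SE 0.11), and PLAUR, the urokinase receptor, at 7.11 and 7.10 against 6.77 and 6.78 (-0.33, SE 0.10). Synapse genes had 13 of 31 positive and a median of -0.055, 0.0091 after quantile normalization. Basal and myoepithelial markers had 8 of 14 positive and a median of 0.025, -0.0175 against Scr replicate 1 alone.

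The lists that describe T47D itself had medians near 0. Luminal identity genes had 10 of 27 positive and a median of -0.005, -0.0875 after quantile normalization and 0.03 against Scr replicate 1, with 0 members at an unadjusted p under 0.05. Estrogen receptor targets had 14 of 29 positive and a median of -0.005, 0.015 with array medians subtracted. TFF1, a classical target of the receptor, was at 8.19 and 8.42 against 7.99 and 8.29, and MYBL1 at 10.24 and 10.13 against 10.53 and 10.46 (difference 0.31, SE 0.11).

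The remaining 7 lists had medians between 0.01 and 0.07 that were 0 or turned sign in at least 1 reading. Heat shock had 15 of 17 positive and a median of 0.07, -0.0097 after quantile normalization, with DNAJB4, a co-chaperone, at 7.27 and 7.36 against 8.26 and 7.88 (difference 0.755, SE 0.29). The unfolded protein response (median 0.06, -0.0172 after quantile normalization), MYC and ribosome biogenesis (0.06, -0.0275), TGF-beta and BMP response (0.04, -0.0178) and Wnt and Notch (0.01, -0.0156) turned in the same way. NRF2 targets (0.045) turned against Scr replicate 2 alone, to -0.03, and the aryl hydrocarbon receptor list (0.04) against Scr replicate 1 alone, to -0.015. Single genes with gaps in these lists were BMP4 (0.395, SE 0.13), POLR1B, a subunit of RNA polymerase I (0.325, SE 0.11), and GPX2, a glutathione peroxidase (-0.54, SE 0.22).

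**Figure D5:**
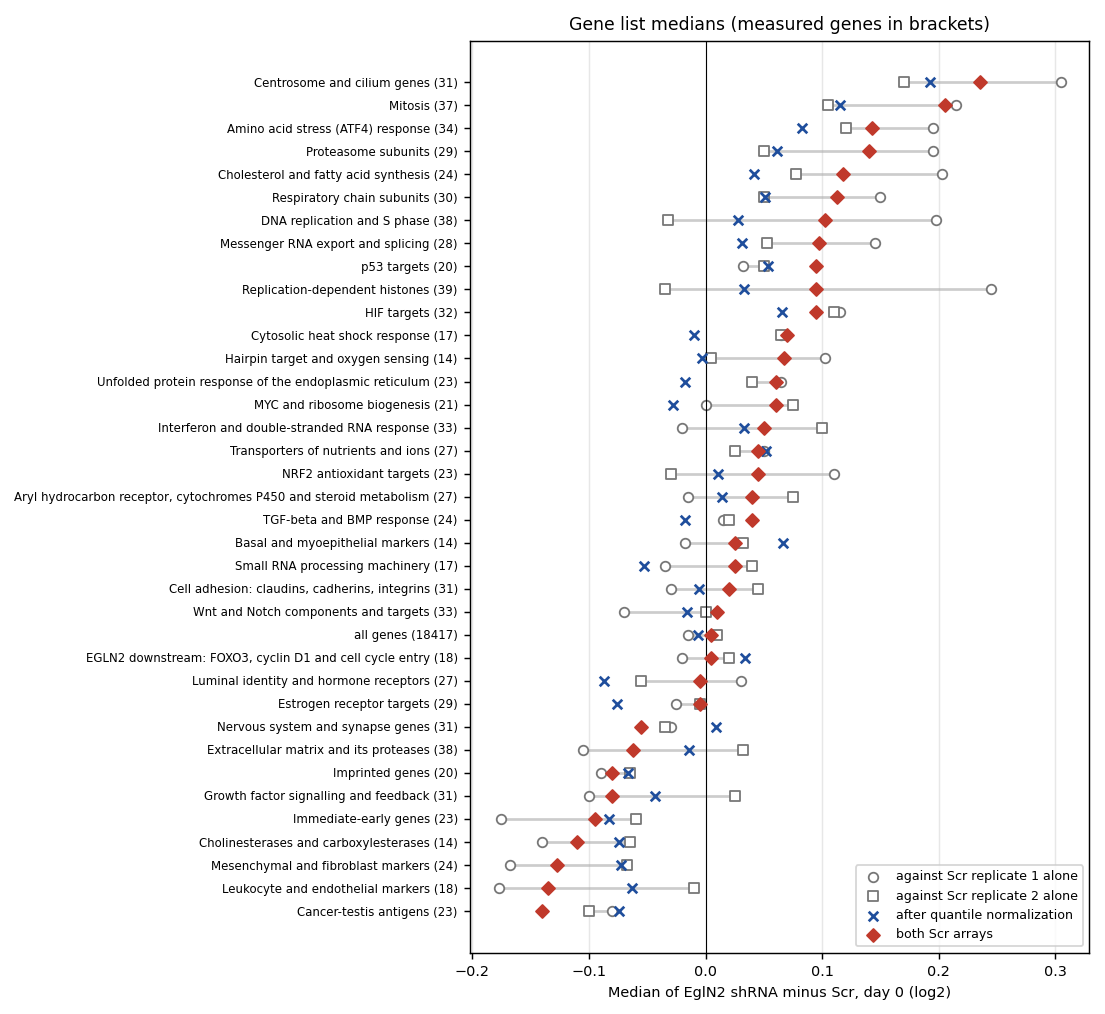
Median day 0 difference (EglN2 shRNA minus Scr, log2, x axis) of the 36 lists and of all genes, with the number of measured genes in brackets. Red diamonds use both Scr arrays, open symbols 1 Scr array each and blue crosses the quantile-normalized values; the centrosome and cilium list is at 0.235 (0.17 to 0.305 against single Scr arrays), while for replication and histones the open symbols fall on both sides of 0.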

How the data were processed

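RNA of T47D cells was labelled with biotin and hybridised to Affymetrix Human Gene 1.0 ST arrays. As deposited, each probe set has 1 log2 value per array. Per the submitters' processing notes, the authors used Affymetrix Expression Console and RMA, whose versions were not given in the sources used here. The values carry 2 decimals, run from 2.73 to 15.25 and were used without further scaling. Depth does not apply to arrays, and 2 arrays a group limit the precision. Of the probe sets, 1 gene was named by the platform table for 19460, several for 1754 and none for 12083, the last left out; RefSeq (GRCh38.p14) gave current symbols for 19429 of the first kind and 31 kept theirs. The array's build was not given either, so probe sets have no coordinates.

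In R 4.3.3, limma 3.58.1 (lmFit, then eBayes) fitted the means of 4 groups to all 8 arrays (4 residual plus 5.53 prior degrees of freedom), two-sided, with Benjamini-Hochberg adjustment over 21214 probe sets and a threshold of 0.05. Permuting 2 arrays against 2 exactly gives no p under 0.333 and was not used. The script was tested on simulated data. Named are a fixed set of genes around EGLN2 and its pathway, the 10 single-gene probe sets of largest moderated t in each direction, as none passed, and up to 4 members of smallest p from each list; a few further list members, and IGFBP5, ALYREF and PPP1R11 from the day 2 calls, were added after their values were seen. The members, lists and tests were chosen with earlier results of these data known. Genes with several probe sets enter a list by the brightest. Alternatives were other normalizations, priors, filters, a replicate block and leaving out each array.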

Additional observations from a re-analysis of the deposited data

How the results depend on the processing

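No probe set passed at day 0 under any of the alternatives tried (smallest adjusted p from 0.131, without EglN2 shRNA day 0 replicate 2, to 0.847, without Scr day 0 replicate 1), and leaving out each array in turn gave 0 calls each time. The 16 calls at day 2 became 32 with the replicate block, 34 among probe sets above the median level, 26 with a prior variance that follows the level and 0 with all probe sets tested, and 0 to 15 with 1 array left out; calls of the day 2 minus day 0 step went from 0 to 2 with that prior and were 0 with any 1 array left out. The labels do not say that equal replicate numbers mark a shared culture or day. The correlations of same-numbered replicates' deviations between groups were all positive, from 0.0981 to 0.271, which with 2 replicates a group does not settle a pairing; with the block day 0 had 0 calls, 3018 probe sets at an unadjusted p under 0.05 and a smallest adjusted p of 0.197. Signs of small day 0 differences turned after quantile normalization to -0.0194 for EPAS1, -0.0688 for FOXO3 (the shared probe set) and -0.0837 for PGR. With 1 array left out, EGLN2 ran from -0.135 to 0.055, CCND1 from -0.18 to 0.13, EGLN3 from -0.24 to 0.05, HIF1A from -0.03 to 0.30, EPAS1 from -0.135 to 0.265, FOXO3 from -0.105 to 0.185 (its own probe set) and from -0.055 to 0.105 (the shared one), the dimmer ESR1 probe set from -0.045 to 0.065, PGR from -0.025 to 0.045 and the dimmer LIN28A probe set from -0.005 to 0.275. The cause was not tested. List medians moved by more than the spread between the arrays in 26 of 611 list and setting combinations. Scanner files, and so signal over background, were not analysed here.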

Other observations

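Gene families known from the nose and the hair follicle were looked up after their values had been seen. Of 360 olfactory receptor genes, 100 (27.8%) had a positive day 0 difference and the median was -0.10 (-0.095 and -0.10 against the 2 Scr arrays alone, -0.0572 after quantile normalization). Of 68 keratin-associated protein genes, 7 (10.3%) were positive, with a median of -0.155 (-0.19 and -0.1375 against the Scr arrays alone, -0.129 after quantile normalization). The lines did not overlap on the lower side for 134 of the olfactory receptor genes and 38 of the keratin-associated ones, against 22.8% of all genes. At day 2 the medians were 0.03 and -0.005. The keratin-associated median lies below that of each level group of all probe sets, the lowest of which was -0.105.

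A further look, also chosen after the values were seen, took the probe sets with a difference of at least 0.5 in size. There were 262 at day 0 (1.24% of those tested), 163 higher and 99 lower, and 212 at day 2 (0.999%). In 22 probe sets the difference was of that size and the same direction on both days, and in 2 it was in opposite directions. Of the 22, 16 did not overlap on either day, beside 45.0% of all probe sets at day 0 and 30.4% at day 2. Choosing by the size of the gap favours such separation. CDC20B, a relative of the mitotic activator CDC20 found in multiciliated cells, was at 6.20 and 5.88 in Scr and at 7.44 and 6.54 in EglN2 shRNA at day 0 (difference 0.95, SE 0.24), and differed by 1.035 at day 2. APOD, a lipid-binding lipocalin, was at 9.57 and 10.04 against 10.28 and 10.86 (0.765, SE 0.25), with 0.75 at day 2. NDRG1, a gene induced by HIF, was at 7.99 and 7.42 against 8.52 and 8.24 (0.675, SE 0.39), with 1.39 at day 2. PDE8B, a phosphodiesterase for cyclic AMP, differed by 0.65 and 0.665, and SPATA17 by 0.755 and 0.59. None of these passed the test on either day (limma, adjusted p from 0.162 to 0.692).

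The unnamed probe sets of the table, 12083 in number, held 0 calls at day 0 and 1010 with an unadjusted p under 0.05 (limma). They were not part of the main fit, so this count does not add to the 2213 of 21214 named ones (10.4%) given there. With all probe sets of the table tested, 2680 were under that p.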
